A study of Homo sapiens with 6 samples.

Results

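The glutathione peroxidases other than GPX3 are GPX1, GPX2, GPX4, GPX7 and GPX8, and all 5 were found by gene symbol among the 58735 genes of the deposited count table. RNA came from A549, an established human lung adenocarcinoma cell line, in 6 libraries. The 3 libraries titled Vector have genotype and treatment given as WT, and the 3 titled OE_GPX3 have both given as OE. The labels do not say how GPX3 was introduced, which part of its transcript the construct carries, whether each group is a clone or a pool, or whether replicates came from separate cultures. The p-values therefore measure only how far these libraries spread, which may be technical.

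Glutathione peroxidases reduce hydrogen peroxide and organic peroxides with glutathione as the electron donor. GPX1 is the abundant form of the cytosol and mitochondria, GPX2 is the gastrointestinal form and a known target of the transcription factor NRF2, and GPX4 reduces lipid peroxides within membranes and restrains ferroptosis. GPX7 and GPX8 reside in the endoplasmic reticulum, where they couple peroxide to the oxidative folding of proteins. GPX3, the gene overexpressed here, encodes the secreted form found in plasma. GPX1, GPX2, GPX3 and GPX4 carry selenocysteine at the catalytic site, encoded by a TGA codon that is otherwise a stop codon, whereas GPX7 and GPX8 carry cysteine.

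The codon that separates these classes is shown in the reference transcripts of GENCODE release 29 (GRCh38), with 30 bases of coding sequence on each side and the catalytic codon in capitals. Each codon was located as the last of a short peptide motif that occurs once in each of the 6 coding sequences. These are reference sequences and not reads of the A549 libraries.
GPX1: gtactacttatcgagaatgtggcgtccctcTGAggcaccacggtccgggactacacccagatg
GPX2: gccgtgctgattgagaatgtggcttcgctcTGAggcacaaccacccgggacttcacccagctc
GPX3: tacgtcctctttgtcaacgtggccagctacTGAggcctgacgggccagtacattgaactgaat
GPX4: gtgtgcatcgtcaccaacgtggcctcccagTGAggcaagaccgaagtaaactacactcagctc
GPX7: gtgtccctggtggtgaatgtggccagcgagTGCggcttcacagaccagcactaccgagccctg
GPX8: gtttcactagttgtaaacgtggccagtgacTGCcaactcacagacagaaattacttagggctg
The annotation marks the TGA of GPX1, GPX2, GPX3 and GPX4 as selenocysteine. The GPX1 stretch lies on the minus strand in exon 1 (chr3:49358102-49358164), that of GPX2 on the minus strand in exon 1 (chr14:64942577-64942639) and that of GPX4 on the plus strand in exon 3 (chr19:1105373-1105435). The stretches of GPX7 (chr1:52606684-52606746) and GPX8 (chr5:55160994-55161056) lie on the plus strand in exon 2, and that of GPX3 runs from exon 2 into exon 3 on the plus strand between positions 151025439 and 151026907 of chromosome 5. GPX1 and GPX2 were identical at 48 of the 63 bases and GPX7 and GPX8 at 42, the closest pairs of the 15, and GPX2 and GPX8 at 26, the most distant.

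Total counts ranged from 15831693 to 18751815 per library. GPX3 itself had 638, 658 and 648 counts in Vector replicates 1 to 3 against 23372, 17470 and 20984 in OE_GPX3 replicates 1 to 3, as the titles say. All 7 epithelial markers examined (KRT7, KRT8, KRT18, KRT19, EPCAM, CDH1 and MUC1) and all 7 genes of the KEAP1-mutant A549 signature, among them NQO1 and AKR1B10, were above 1 CPM (counts scaled to library size, with TMM factors between libraries) in every library. The summed CPM of the epithelial markers ran from 24790 to 27287 in Vector and from 27436 to 36721 in OE_GPX3, and their part in the results below was not tested. Of 25 markers of fibroblasts, endothelium, leukocytes, hepatocytes, neurons and erythroid cells, 6 were above 1 CPM in every library (COL1A1, CD14, ITGAM, SYT1, SNAP25 and RBFOX3). All 3 neuronal markers were among these, summing to between 60.9 and 69.2 CPM in Vector and between 56.6 and 86.4 CPM in OE_GPX3. The 25 markers together summed to between 80.5 and 92.7 CPM in Vector and between 79.5 and 115 CPM in OE_GPX3. KDR and APOB were among those at 0 in all 6 libraries.

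GPX2 was the most abundant member, followed by GPX1 and GPX4, with GPX8 far lower and GPX7 close to 0. Levels are compared between genes here in the deposited FPKM, which divide counts by the gene length in the table. GPX2 stood at 358, 363 and 404 FPKM in Vector and at 398, 424 and 428 in OE_GPX3. GPX1 stood at 268, 286 and 311 FPKM in Vector and at 273, 364 and 365 in OE_GPX3. The highest GPX1 library reached above the lowest GPX2 library, but GPX2 was above GPX1 within each of the 6 libraries. By mean FPKM in Vector, GPX2 ranked 93, GPX1 124 and GPX4 213 among the 24754 genes with a count there.

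GPX4, the membrane lipid peroxidase, stood at 159, 159 and 175 FPKM in Vector and at 162, 209 and 198 in OE_GPX3, below every GPX1 library. That order depends on the length used. The table gives GPX4 2019 bases and GPX1 1430 bases, whereas the principal coding transcripts in the annotation have 919 and 1151 bases. Per base of the principal transcript, GPX1 was above GPX4 in 3 of the 6 libraries, so the order of GPX1 and GPX4 was not resolved, while GPX2 stayed first in all 6.

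GPX8, a membrane-bound enzyme of the endoplasmic reticulum, stood at 5.57, 6.32 and 5.99 FPKM in Vector and at 5.57, 5.69 and 4.38 in OE_GPX3. The ratio of GPX1 to GPX8 in FPKM averaged 48.4 ± 3.35 over the Vector libraries and 65.5 ± 17.2 over the OE_GPX3 libraries (SD, n = 3 each). GPX7 had a single count in Vector replicate 2 and a single count in OE_GPX3 replicate 3, at 0.0301 and 0.0385 FPKM, and 0 in the other libraries. A count of 0 allows up to 3 counts, which is between 0.169 and 0.183 CPM of the total in those 4 libraries, and such limits cover counting error only. GPX7 was therefore at the limit of detection in both groups, and a difference between them was not detectable at this depth. GPX5 and GPX6, the family members known from epididymis and olfactory epithelium, had 0 counts in all 6 libraries, which allows up to 0.160 to 0.189 CPM.

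**Figure D1:**
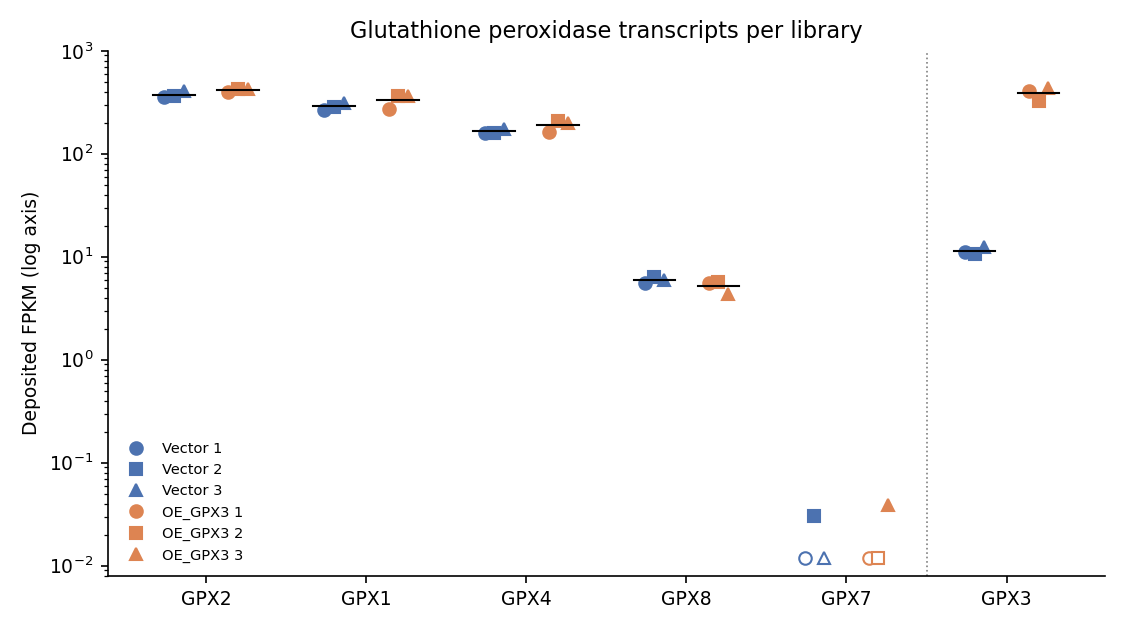
Deposited FPKM of each glutathione peroxidase on a log axis, with Vector in blue, OE_GPX3 in orange, one symbol per replicate, group means as bars and open symbols for libraries with no count. GPX2, GPX1 and GPX4 lie between 159 and 428 FPKM in every library, GPX8 between 4.38 and 6.32, and GPX3 moves from between 10.6 and 12.5 FPKM in Vector to between 327 and 432 in OE_GPX3.

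Among 25 selenoprotein genes, the 3 selenocysteine members GPX1, GPX2 and GPX4 ranked 1 to 4 by FPKM in every library together with TXNRD1, or with GPX3 in the OE_GPX3 libraries. TXNRD1, the cytosolic thioredoxin reductase, stood at 183, 196 and 181 FPKM in Vector, above GPX4 in each of these libraries. In OE_GPX3 it stood at 161, 167 and 148 FPKM, below GPX4 in each, by less than 1 FPKM in replicate 1. The next gene in Vector, the endoplasmic reticulum selenoprotein SELENON, had 43.4 ± 3.44 FPKM (SD, n = 3).

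Whether the other glutathione peroxidases differed between OE_GPX3 and Vector was asked with edgeR's quasi-likelihood test on counts, fitted over all 14458 genes with enough counts. GPX1, GPX2, GPX4 and GPX8 passed that filter and GPX7 did not. Of the 4 tested members 0 were called at an adjusted p under 0.05 in edgeR, against 0.263% of all tested genes, and 0 had an unadjusted p under 0.05, against 14.6% of all tested genes. DESeq2, the replicate block and the GC correction each called 0 of the 4 as well, against 0.802%, 1.6% and 0.0277% of all tested genes. The libraries of the groups overlapped for each of the 4, whereas they did not overlap for 18.5% of all tested genes. GPX1, GPX2 and GPX4 had log2 fold changes above 0, as did 47.4% of all tested genes, and GPX8 had one below 0, as did 52.6%. The members' changes were of common size: 38.1% of all tested genes had an absolute log2 fold change at least that of GPX8, the largest of the 4, and 56.6% at least that of GPX2, the smallest.

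GPX1 had 390, 414 and 447 CPM in Vector and 394, 520 and 519 CPM in OE_GPX3. OE_GPX3 replicates 2 and 3 lay above all Vector libraries, while replicate 1 lay within them. Vector averaged 417 ± 28.96 CPM and OE_GPX3 478 ± 72.7 (SD, n = 3 each). The log2 fold change was 0.20 (SE 0.11, 95% confidence limits -0.03 and 0.42, edgeR adjusted p = 0.405). These limits correspond to 0.982-fold and 1.34-fold. Without OE_GPX3 replicate 1, GPX1 was called, at a log2 fold change of 0.32 (edgeR adjusted p = 0.0435), in a fit that called 657 genes or 4.47% of those tested. Without that replicate and with a correction for GC content it was not called, at 0.14 (edgeR adjusted p = 0.453), and the adjusted p over all alternatives ran from 0.0435 to 0.947.

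GPX4 had 327, 326 and 355 CPM in Vector and 330, 421 and 397 CPM in OE_GPX3. As for GPX1, replicates 2 and 3 of OE_GPX3 were above all Vector libraries and replicate 1 was among them. Its log2 fold change was 0.19 (SE 0.11, limits -0.03 and 0.40, edgeR adjusted p = 0.406). Without OE_GPX3 replicate 1 it was 0.29 and not called (edgeR adjusted p = 0.0761).

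GPX2 had 546, 550 and 609 CPM in Vector and 601, 635 and 639 CPM in OE_GPX3. Only Vector replicate 3 and OE_GPX3 replicate 1 crossed. For GPX2 the log2 fold change was 0.14 (SE 0.10, limits -0.07 and 0.34, edgeR adjusted p = 0.530). The 3 OE_GPX3 libraries were close together for GPX2, with a coefficient of variation of 3.38% against 15.2% for GPX1 and 12.3% for GPX4, while in Vector it was between 4.96% and 6.95% for these 3 genes.

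GPX8 had 21.9, 24.7 and 23.3 CPM in Vector and 21.7, 22.0 and 16.9 CPM in OE_GPX3. OE_GPX3 replicate 3 was the lowest library, and the other OE_GPX3 libraries were near the lowest Vector library. For GPX8 the log2 fold change was -0.21 (SE 0.13, limits -0.48 and 0.07, edgeR adjusted p = 0.474), from 1250 counts in Vector and 1019 in OE_GPX3. Without OE_GPX3 replicate 3 it was -0.08.

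The members differ in GC content, and the libraries differed in how GC-rich genes stood. GC content was 64.2% for GPX1, 62.5% for GPX4, 53.1% for GPX2 and 40.8% for GPX8, in the longest transcript of each. The mean log2 deviation of tested genes in the upper GC quartile (56.8% or more) minus that of the lower quartile (42.5% or less) was -0.28, -0.21 and 0.02 for Vector replicates 1 to 3, against 0.09, 0.04 and 0.34 for OE_GPX3 replicates 1 to 3. The groups did not overlap in this measure, so a technical trend and a real group difference that follows GC content cannot be told apart. A correction for GC content takes out both. The median log2 fold change over tested genes was -0.17, -0.08, 0.05 and 0.15 from the GC-poorest to the GC-richest quartile. After a correction for GC content the log2 fold change was 0.03 for GPX1, 0.05 for GPX4, 0.11 for GPX2 and -0.05 for GPX8 (edgeR adjusted p = 0.947, 0.914, 0.708 and 0.932).

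**Figure D2:**
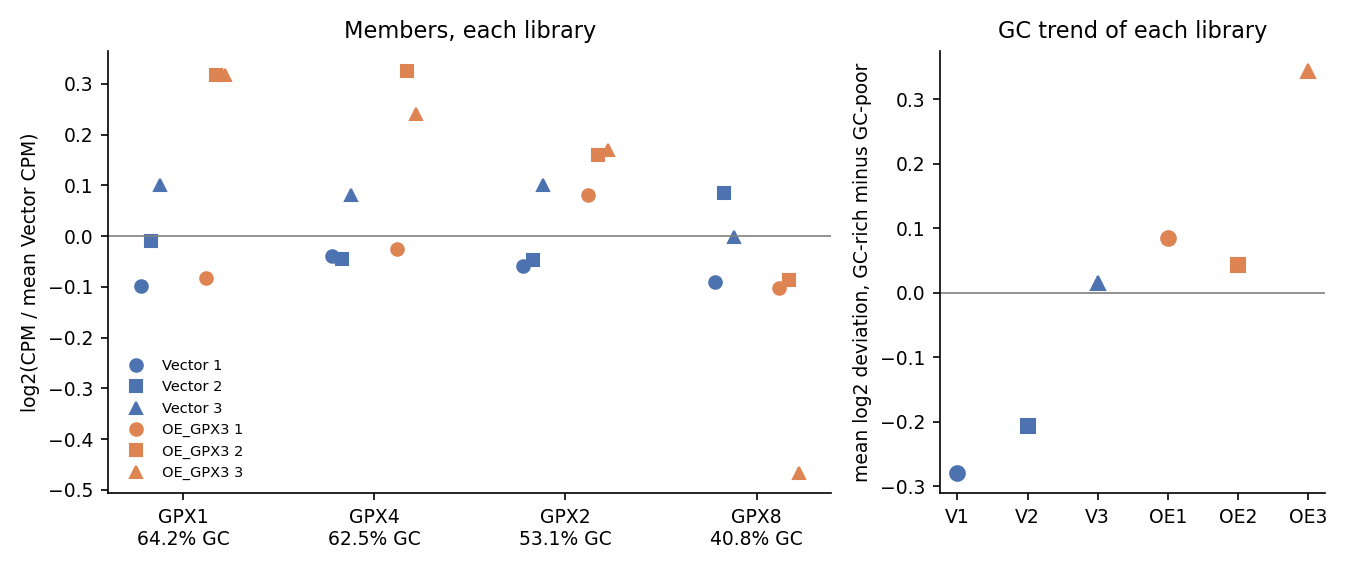
Left, log2 of CPM over the mean Vector CPM for each tested member in each library (Vector blue, OE_GPX3 orange), with its GC content. Right, the mean log2 deviation of GC-rich minus GC-poor genes in each library, from -0.28 in Vector replicate 1 to 0.34 in OE_GPX3 replicate 3.

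**Figure D3:**
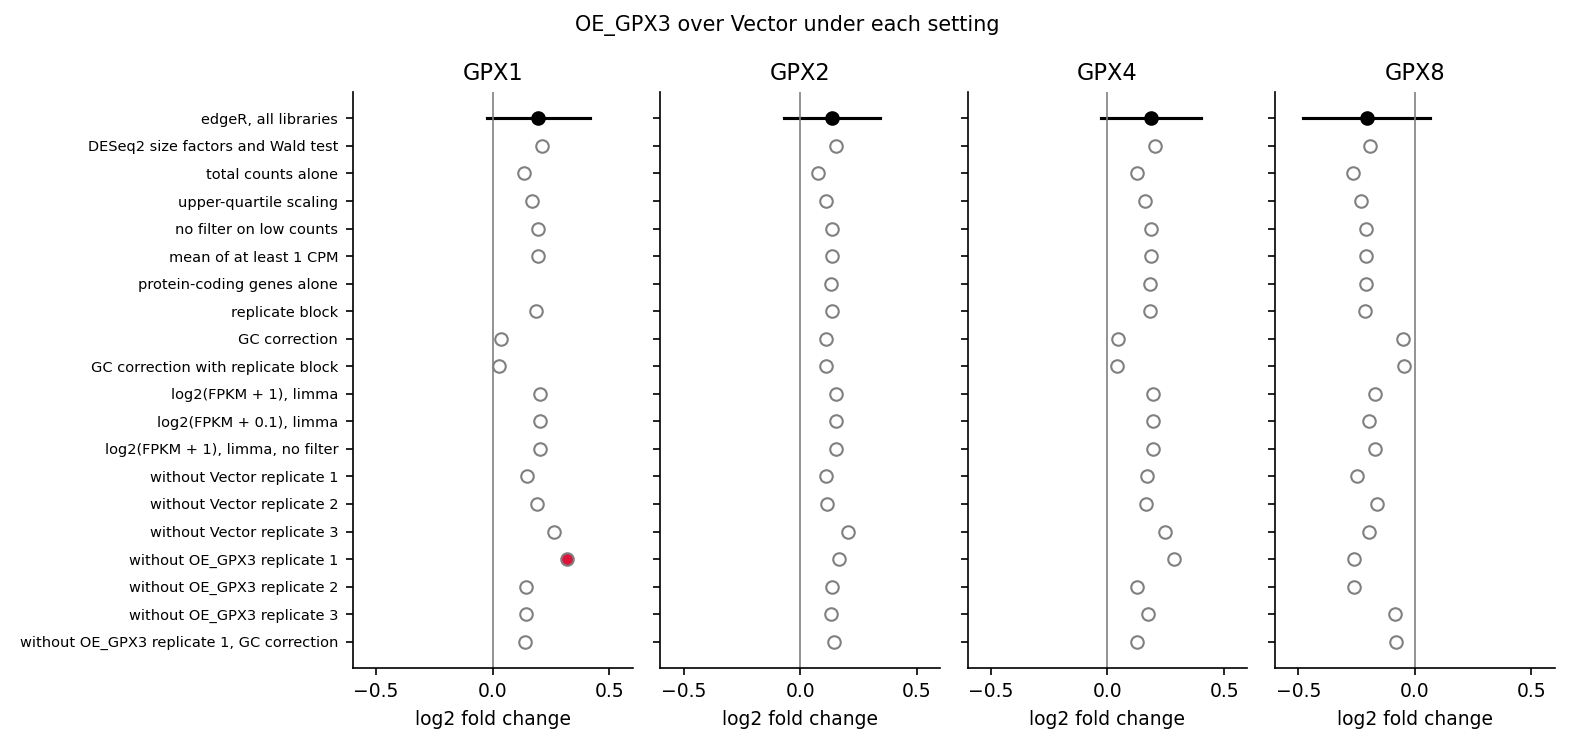
Log2 fold change of OE_GPX3 over Vector for each tested member under each setting, with the edgeR value of all libraries and its 95% confidence interval in black, alternatives without a call as open circles, and the 1 alternative with an adjusted p under 0.05 (GPX1 without OE_GPX3 replicate 1) as a red circle. Each member keeps its sign throughout, and the values shrink most with the GC correction for GPX1, GPX4 and GPX8.

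GPX3 rose to the level of the most abundant members, while the summed level of the others overlapped between groups. The 5 members summed to 834 ± 55.1 FPKM in Vector against 945 ± 92.9 for OE_GPX3 (SD, n = 3 each), with OE_GPX3 replicate 1 at 838 below Vector replicate 3 at 896. With GPX3 included, the family summed to 802, 825 and 908 FPKM in Vector and to 1249, 1329 and 1428 in OE_GPX3, without overlap. GPX3 took 1.35% ± 0.0601 of that sum in Vector against 29.3% ± 4.26 for OE_GPX3 (SD, n = 3 each). GPX3 was above GPX2 in OE_GPX3 replicates 1 and 3 and below it in replicate 2, with GPX3 to GPX2 ratios of 1.03, 1.01 and 0.770. The FPKM of GPX3 rest on 3163 bases in the table, while its principal transcript has 1636, so a construct with the coding part alone would be understated.

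Within the 5 members the proportions were close between groups. GPX2 took 45.0% ± 0.397 of their summed FPKM in Vector and 44.3% ± 2.76 in OE_GPX3, GPX1 34.6% ± 0.637 and 35.2% ± 2.26, and GPX4 19.7% ± 0.341 and 20.0% ± 0.758 (SD, n = 3 each). GPX8 took 0.716% ± 0.0549 in Vector and 0.557% ± 0.112 in OE_GPX3. There all 3 OE_GPX3 libraries were below the lowest Vector library, at 0.664%, 0.567% and 0.440% against 0.668%, the closest pair being nearly equal. The CPM of GPX8 itself overlapped between groups, and 18.5% of all tested genes had no overlap in CPM. A share of GPX8 also moves with GPX1, GPX2 and GPX4, which make up nearly all the rest of the sum. Shares over the members were given no test.

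**Figure D4:**
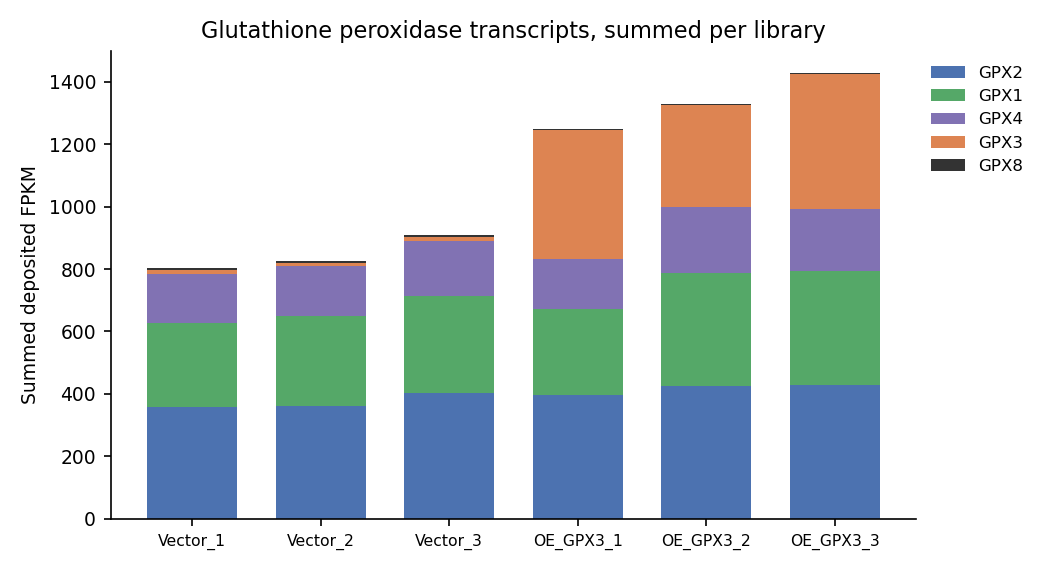
Stacked deposited FPKM of GPX2, GPX1, GPX4, GPX3 and GPX8 in each library (GPX7 is too low to draw). The sum without GPX3 runs from 791 to 896 FPKM in Vector and from 838 to 1003 in OE_GPX3, and GPX3 adds 327 to 432 FPKM in OE_GPX3.

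GPX1 and GPX4 moved together over the libraries. Their log2 CPM had a Pearson r of 0.97 over the 6 libraries, given as a description since the libraries share depth and GC trend, and GPX4 stood at place 177 of 9981 genes in likeness to GPX1. GPX2 had r of 0.83 with GPX1 and 0.85 with GPX4, and GPX8 had r between -0.60 and -0.53 with the other members. Among genes of at least 5 CPM, FBL, S100A16 and POLD2 were the most like GPX1 and CAPNS1 and KLHDC3 were among the most like GPX4, all with r above 0.99. ZFYVE27, GRK6 and PTGES were the most like GPX2, at r of 1.00, 1.00 and 0.99, and ZNF266, ATP6V1E1 and NGLY1 the most like GPX8, at 0.99 each. With 6 libraries many genes reach such values, though fewer for GPX8. Of 9981 genes compared, 311 (3.12%) had r above 0.95 with GPX1, 244 (2.44%) with GPX4 and 218 (2.18%) with GPX2. For GPX8 it was 36 (0.361%).

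Counts of the members could be shared with other loci in few cases. GPX1 (ENSG00000233276, chromosome 3, 49357171 to 49358600, minus strand) is classed in the table as a polymorphic pseudogene, so a fit over protein-coding genes alone leaves it out. Its processed copies are GPX1P1 on chromosome X, 98.2% identical over 606 aligned bases, and GPX1P2 on chromosome 21, 95.2% identical over 601. GPX1P1 had 5, 10 and 4 counts in Vector and 3, 18 and 10 in OE_GPX3, and GPX1P2 had 0 in all 6, beside 6903 to 8802 counts for GPX1. How many reads could not be placed between GPX1 and its copies was not tested, so the GPX1 level is uncertain to that extent. The sources used here do not state how reads with several placements were counted. RHOA lies 544 bases beyond GPX1 and had a log2 fold change of -0.02, and USP4 on the other side had -0.05.

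GPX2 (ENSG00000176153, chromosome 14, 64939152 to 64942905, minus strand) lies within CHURC1 and CHURC1-FNTB on the other strand, with 0 shared exon bases. CHURC1 had 183 to 336 counts against 9668 to 10755 for GPX2, and its log2 fold change was -0.30 (SE 0.15, edgeR adjusted p = 0.361). GPX8 (ENSG00000164294, chromosome 5, 55160118 to 55167071, plus strand) lies within CDC20B on the other strand, with 0 shared exon bases, and CDC20B had at most 3 counts. GPX4 (ENSG00000167468, chromosome 19, 1103926 to 1106791, plus strand) overlaps no other gene of the table, and its neighbours POLR2E and SBNO2 had log2 fold changes of 0.16 and 0.03. GPX7 (ENSG00000116157, chromosome 1, 52602372 to 52609051, plus strand) overlaps none either, and its neighbours EEF1GP7 and SHISAL2A had at most 1 count.

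Related genes were examined in 8 lists, covering cofactor supply, oxidative folding, other redox enzymes, ferroptosis, other selenoproteins and NRF2. Of these lists 152 different genes were tested, and edgeR called 0 of them, beside 0.263% of all tested genes. DESeq2 called 3 of 152, beside 0.802% of all tested genes, and the fit without OE_GPX3 replicate 1 called 13 of 153, beside 4.47%. Among the 28 list genes named here by smallest p, 11 were called in some alternative. The GC correction brought 24 of the 28 closer to 0, and 13 of them by over 1.5 times. Because the 28 were chosen by smallest p without that correction, the choice itself favours such a move. The same shares over all tested genes were not counted, so these counts say nothing particular about the list genes. The median log2 fold change over all tested genes was -0.02. Each list below is to be read beside 47.4% of all tested genes above 0 and 52.6% below 0. The list counts with an unadjusted edgeR p under 0.05 stand beside 14.6% of all tested genes. List genes given below as without overlap stand beside 18.5% of all tested genes, and choice by smallest p favours such genes.

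Glutathione synthesis had 20 tested genes, 10 above and 10 below 0, with a median of -0.01. An unadjusted edgeR p under 0.05 was reached by 6 of them, where 14.6% of all tested genes did so. SLC7A11, the cystine transporter that feeds glutathione synthesis, stood at 83.6 ± 5.89 CPM in Vector against 62.1 ± 5.34 in OE_GPX3 (SD, n = 3 each), without overlap, at -0.43 on the log2 scale (edgeR adjusted p = 0.0691). With the GC correction SLC7A11 was at -0.22, and it was called in 5 of 19 alternatives, with values from -0.49 to -0.16. GGT1, which degrades extracellular glutathione, had 0.31, CTH, which makes cysteine, -0.41, and CHAC2, which degrades glutathione in the cytosol, -0.39 (edgeR adjusted p = 0.182, 0.279 and 0.308). GCLC and GCLM, the subunits of the rate-limiting ligase, had -0.06 and -0.11, and GSS, the synthetase, 0.07.

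Reduction of glutathione and NADPH supply had 18 tested genes, 8 above and 10 below 0, with a median of -0.04 and 5 with an unadjusted p under 0.05 in edgeR. The log2 fold change was -0.43 for the mitochondrial transhydrogenase NNT, while the folate enzymes ALDH1L2, MTHFD2 and MTHFD1L had -0.53, -0.64 and -0.24 (edgeR adjusted p between 0.183 and 0.312). MTHFD2 had 163, 288 and 195 CPM in Vector replicates 1 to 3 and 113, 147 and 155 CPM in OE_GPX3 replicates 1 to 3. It was called in 4 of 19 alternatives, with values from -0.80 to -0.32. The edgeR adjusted p of MTHFD2 was 2.3e-07 without Vector replicate 1 but 0.666 without Vector replicate 2. With the GC correction it was 0.653. GSR, which regenerates reduced glutathione for the peroxidases, had -0.08.

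Selenocysteine incorporation, on which GPX1, GPX2 and GPX4 depend, had 16 tested genes, 6 above and 10 below 0, with a median of -0.09. Of these, 6 had an unadjusted p under 0.05 in edgeR, beside 14.6% of all tested genes. SEPSECS, the enzyme that forms selenocysteine on its transfer RNA, stood at 4.10 ± 1.16 CPM in Vector against 2.29 ± 0.110 in OE_GPX3 (SD, n = 3 each), without overlap, at -0.84 on the log2 scale (edgeR adjusted p = 0.129). SEPSECS was called in 2 of 17 alternatives, without Vector replicate 1 and without OE_GPX3 replicate 1, at -1.05 and -0.88. ALKBH8, which modifies the selenocysteine transfer RNA, had -0.85, EEFSEC, the elongation factor dedicated to selenocysteine, 0.36, and SARS, the seryl transfer RNA synthetase, -0.30 (edgeR adjusted p = 0.183, 0.201 and 0.234). SECISBP2, which binds the selenocysteine insertion element of these messages, had -0.34 (edgeR adjusted p = 0.269). Of 16 other selenoproteins tested, 11 were above and 5 below 0, with a median of 0.11 and 5 with an unadjusted p under 0.05 in edgeR. SELENOO, SELENOM, TXNRD1 and SELENON had log2 fold changes of 0.43, 0.35, -0.25 and 0.23 (edgeR adjusted p between 0.117 and 0.296). SELENOO was called in 3 of 19 alternatives and SELENOM in 1, and with the GC correction they were at 0.24 and 0.23.

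Oxidative folding in the endoplasmic reticulum, the setting of GPX7 and GPX8, had 24 tested genes, 16 above and 8 below 0, with a median of 0.07 and 3 with an unadjusted p under 0.05 in edgeR. The chaperone CALR, the sulfhydryl oxidase QSOX1, the disulfide isomerase PDIA4 and the oxidase ERO1B had log2 fold changes of 0.31, 0.28, 0.22 and -0.38 (edgeR adjusted p between 0.184 and 0.354). PRDX4, the peroxiredoxin of the same compartment, had 94.9 FPKM in Vector beside 5.96 for GPX8, and a log2 fold change of 0.09. The farthest point of this list was the disulfide isomerase TXNDC5, singled out after its value was seen, with 2.54, 2.37 and 9.54 CPM in Vector replicates 1 to 3 and 10.99, 10.92 and 9.15 CPM in OE_GPX3 replicates 1 to 3. Vector replicate 3 lay within the OE_GPX3 libraries, so the groups overlapped, and the log2 fold change was 1.13 (SE 0.62, edgeR adjusted p = 0.478). Without Vector replicate 3 it was 2.09 and called (edgeR adjusted p = 5.3e-06), but leaving out that library removes the overlap, so the call is no separate support. TXNDC5 was called in no other alternative. Without Vector replicates 1 and 2 its edgeR adjusted p was 0.614 and 0.759.

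The list of other peroxide-removing enzymes also held superoxide dismutases, thioredoxins, their reductases and glutaredoxins, which do not all remove peroxide. It had 25 tested genes, 15 above and 10 below 0, with a median of 0.05. Of these, 5 had an unadjusted p under 0.05 in edgeR. The glutaredoxin GLRX5, the microsomal transferase MGST3 and the sulfiredoxin SRXN1 had log2 fold changes of 0.38, 0.26 and 0.28 (edgeR adjusted p between 0.132 and 0.294). GLRX5 was called in 3 of 19 alternatives. These were the fits without OE_GPX3 replicate 1, with and without the GC correction, and the GC correction with replicate block. MGST3 was called in 1, without OE_GPX3 replicate 1 and with the GC correction. The GC correction alone called neither (edgeR adjusted p = 0.228 for GLRX5 and 0.219 for MGST3). Catalase (CAT) had -0.02 and the peroxiredoxins PRDX1 and PRDX6 0.17 and 0.08. Genes of lipid peroxidation and ferroptosis, in which GPX4 acts, numbered 24 tested, 15 above and 9 below 0, with a median of 0.01 and 2 with an unadjusted p under 0.05 in edgeR. SAT1, a polyamine acetyltransferase, had -0.24, the reductase POR 0.21, the lipoxygenase ALOXE3 -0.50 and the reductase STEAP3 0.17 (edgeR adjusted p between 0.290 and 0.429). AIFM2 and ACSL4, which restrain and promote ferroptosis, had 0.03 and 0.01.

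NRF2 regulators and targets, to which GPX2 is often added, had 26 tested genes, 12 above and 14 below 0, with a median of -0.03 and 4 with an unadjusted p under 0.05 in edgeR. NFE2L2, the gene of NRF2 itself, stood at 32.8 ± 1.63 CPM in Vector against 22.9 ± 2.09 in OE_GPX3 (SD, n = 3 each), without overlap, at -0.52 on the log2 scale with limits of -0.77 and -0.27 (edgeR adjusted p = 0.0517). It was called in 7 of 19 alternatives and kept its sign in all 19, with adjusted p values from 0.0180 to 0.663. With the GC correction NFE2L2 was at -0.42 (edgeR adjusted p = 0.219), and no fit with that correction called it. SLC7A11 and TXNRD1, given above, and SRXN1 were the next by p, and GPX2 had 0.14.

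**Figure D5:**
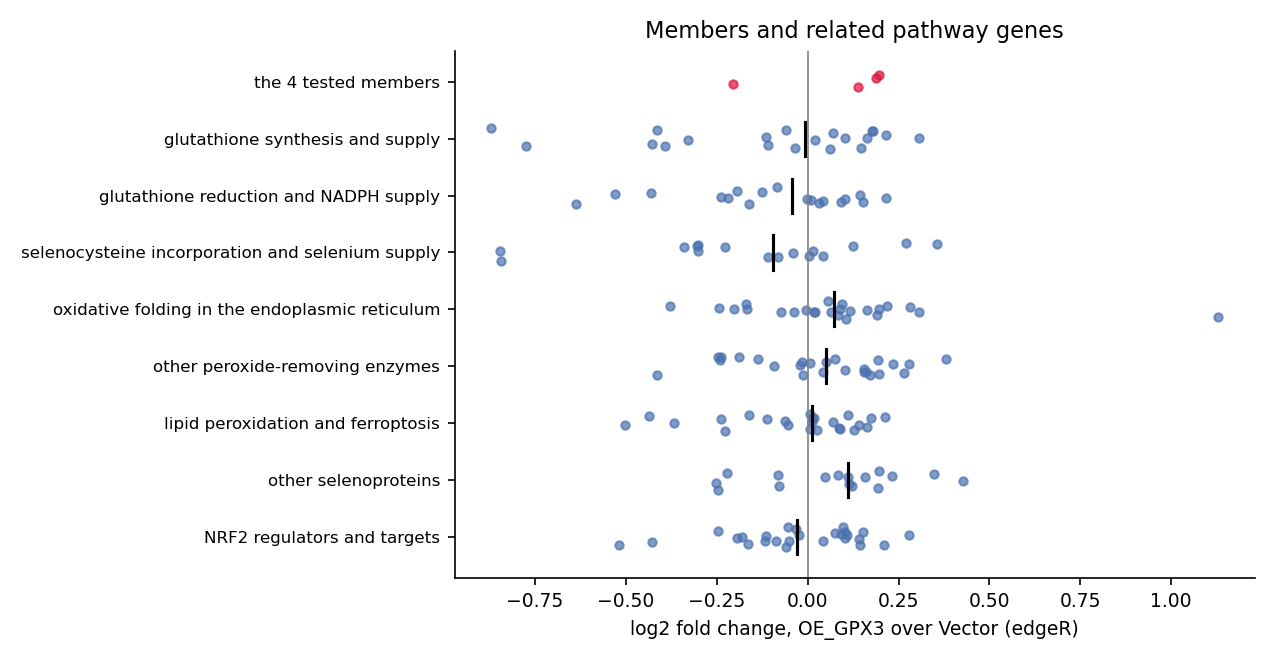
Log2 fold change of OE_GPX3 over Vector for the 4 tested members (red) and for each tested gene of the 8 lists (blue), with black bars for list medians between -0.09 and 0.11. None of the plotted genes had an adjusted p under 0.05 in edgeR with all 6 libraries.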

How the data were processed

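RNA was measured in 6 libraries, assigned to Vector or OE_GPX3 by title. The library protocol in the labels describes small RNA enrichment, while the table holds counts over messenger RNAs. The authors deposited whole-number counts per gene and FPKM per gene, on hg38 per the submitters' processing notes, and the sources used here do not state the aligner, counter, use of strand or handling of reads with several placements. All 58735 genes have the position that GENCODE release 29 gives. The deposited FPKM equal the count per table length and per 1 constant of each library, which differs from the total by -4.52% to 4.90%, and what sets that constant was not stated.

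Genes were filtered with filterByExpr (minimum count 10, minimum total 15), leaving 14458, scaled by TMM and tested with edgeR 4.0.16 (quasi-likelihood, robust, two-sided, R 4.3.3) with Benjamini-Hochberg adjustment over all tested genes at 0.05. Alternatives used DESeq2 1.42.0, limma 3.58.1 on log2(FPKM + 1) or log2(FPKM + 0.1) with a mean FPKM of at least 1, where fold changes of low genes are understated, a replicate block, and GC offsets from a loess trend (span 0.5) of each library. On counts simulated for this comparison over 14271 genes, 51 of 67 genes changed 1.5-fold were called. So were 65 of 67 changed 2-fold and 66 of 66 changed 4-fold, and 13 of 195 calls were false. The simulated counts had no GC trend, unlike the libraries, and changed genes were not drawn from the lowest levels. No fold under 1.5 was simulated, so recovery of changes as small as those of the members was not tested. The spread between libraries (biological coefficient of variation 0.11 in edgeR) enters the intervals given along with counting error.

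The members and the lists were chosen with earlier results of these data known. The genes named are the members, the remaining family genes and GPX1 copies, overlapping or nearest genes of the members, up to 4 genes with the smallest p in each of 8 lists, and the 3 genes most like each tested member by Pearson r of log2 CPM (prior count 2) among protein-coding genes of at least 5 CPM. Further list genes (GCLC, GCLM, GSS, GSR, SECISBP2, PRDX4, CAT, PRDX1, PRDX6, AIFM2 and ACSL4) were picked for their role after their values were seen. Of 209 member, family, list and marker symbols 209 were matched, SARS through its current symbol SARS1. The labels do not say whether replicate numbers pair the libraries, so a replicate block was run as an alternative only. A few genes that these rules name are not reported here.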

Additional observations from a re-analysis of the deposited data

How the results depend on the processing

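Log2 fold changes of the 4 tested members kept their sign under every alternative run, in ranges of 0.02 to 0.32 for GPX1, 0.08 to 0.20 for GPX2, 0.04 to 0.29 for GPX4 and -0.27 to -0.05 for GPX8, and 1 call arose, that of GPX1 without OE_GPX3 replicate 1 (0.32). GPX7 was given no fitted value. The 38 genes called (14 higher, 24 lower) became 116 with DESeq2 (68 higher, 48 lower), 68 with total counts alone (13 higher, 55 lower), 129 with no filter on low counts, 4 with the GC correction, 10 and 11 with limma on log2(FPKM + 1) and log2(FPKM + 0.1), 1 with limma and no filter, and 1 to 657 when 1 library was left out: 116 and 4 without Vector replicates 1 and 2, and 657, 1 and 12 without OE_GPX3 replicates 1, 2 and 3 (227 without OE_GPX3 replicate 1 with the GC correction, added after the data were seen). With the replicate block it was 231, and 59 with the GC correction as well, and the block gave log2 fold changes of 0.19 for GPX1, 0.14 for GPX2, 0.18 for GPX4 and -0.21 for GPX8 with no call. In the block fit GPX1 and GPX4 had unadjusted edgeR p of 0.0330 and 0.0388, where 3090 of 14458 tested genes were under 0.05. Deviations of same-numbered libraries correlated at 0.19, 0.01 and 0.11. For Vector replicates 1 and 3 the same-numbered OE_GPX3 library was the best match, and for replicate 2 it was not. Whether the numbers mark pairs is therefore not known, and they were not taken as pairs in the edgeR fit of all libraries. Of 152 list genes edgeR called 0. DESeq2 called 3 and the replicate block 7, beside 0.802% and 1.6% of all tested genes. Total counts alone called 2, beside 68 of 14458 tested genes, and upper-quartile scaling 1, beside 52 of 14458. With no filter it was 3 of 164, beside 129 of 26840, and with block and GC correction 3, beside 59 of 14458. When 1 library was left out it was 0 to 13. Without OE_GPX3 replicate 1 it was 13 of 153, beside 4.47% of all tested genes, and 2 with the GC correction, beside 227 of 14707. Without Vector replicate 1 it was 5, beside 116 of 14727, and without Vector replicate 3 it was 1, beside 35 of 14774. By principal transcript length, added after the data were seen, the Vector shares of the members became 27.5% for GPX1, 43.5% for GPX2, 27.7% for GPX4 and 1.26% for GPX8. The cause of these shifts was not tested. Depth limits GPX7.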
